A study of Mus musculus with 12 samples.

Results

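The genes of sterol and fatty acid synthesis under SREBP control were followed through mouse cortical neurons that had been left intact, scratched, or scratched and kept with TGF-β1. They were 40 genes chosen by symbol for their place in cholesterol synthesis, in the control of that pathway, or in the synthesis, elongation and desaturation of fatty acids, and all 40 were found once each among the 55901 genes of the deposited table. By role they were 8 enzymes from acetyl-CoA to the prenyl diphosphates, 11 enzymes from squalene to cholesterol, 7 regulators, 3 genes of sterol transport, storage and removal, 4 enzymes of fatty acid synthesis, and 7 of elongation, desaturation and glycerolipid synthesis. The list does not hold every enzyme of these pathways.

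The cells were primary cortical neurons of newborn C57BL/6J mice of no altered genotype, cultured for 7 days, with arabinosylcytosine, which limits dividing glial cells, present for 24 h from the first day. Control cultures were left intact, Trauma cultures were scratched with a needle 24 h before RNA was taken, and Trauma+TGF-β1 cultures (Tra_TGF in the labels) received the same scratch plus TGF-β1 at 10 ng/mL for those 24 h, with 4 RNA-seq libraries in each group. Each Trauma and Trauma+TGF-β1 library therefore holds RNA of scratched and unscratched neurons of the dish together. Libraries of all 3 groups also hold RNA of any remaining glia. The labels do not say whether the 4 libraries came from separate cultures, so p-values measure only the spread between these libraries, which may be technical.

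Cholesterol is built from acetyl-CoA through mevalonate, isoprenoid diphosphates, squalene and lanosterol, and brain makes its own because the blood-brain barrier keeps out lipoprotein cholesterol. Transcription of nearly every enzyme on this route is driven by SREBP-2, a membrane-bound factor that SCAP escorts from the endoplasmic reticulum to the Golgi for cleavage when sterols are low and that INSIG proteins hold back when sterols are high, while SREBP-1 and the oxysterol receptors LXRα and LXRβ act more on fatty acid synthesis and desaturation. Astrocytes supply much of the cholesterol of mature neurons.

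SREBP binds sterol regulatory elements close to the gene start, beside sites for NF-Y, which reads CCAAT. RefSeq promoter windows (GRCm38.p6, 250 bases before and 50 after the annotated start) were at hand for 33 of the 40 genes. Of these, 4 are shown up to the RefSeq start or, where it comes earlier, the start of the gene in the deposited table: the synthase Hmgcs1, whose window held the longest of the motifs searched, 2 later enzymes of the mevalonate stretch with several CCAAT matches, and the SREBP inhibitor Insig1. The genes span chr13:119690379-119708260 (Hmgcs1, ENSMUSG00000093930), chr5:114444269-114460591 (Mvk, ENSMUSG00000041939), chr8:122433601-122443422 (Mvd, ENSMUSG00000006517) and chr5:28071363-28078662 (Insig1, ENSMUSG00000045294) in the deposited table. Capitals mark every match, on either strand, of TCACNCCAC, of its inner 8 letters CACNCCAC, of CCAAT and of CACGTG.
Hmgcs1, chr13:119690101-119690350, plus strand: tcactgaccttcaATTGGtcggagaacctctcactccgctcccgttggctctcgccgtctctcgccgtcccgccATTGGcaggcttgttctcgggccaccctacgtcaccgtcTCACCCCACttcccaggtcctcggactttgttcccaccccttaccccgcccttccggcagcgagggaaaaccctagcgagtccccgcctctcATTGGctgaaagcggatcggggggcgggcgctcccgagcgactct
Mvk, chr5:114444019-114444268, plus strand: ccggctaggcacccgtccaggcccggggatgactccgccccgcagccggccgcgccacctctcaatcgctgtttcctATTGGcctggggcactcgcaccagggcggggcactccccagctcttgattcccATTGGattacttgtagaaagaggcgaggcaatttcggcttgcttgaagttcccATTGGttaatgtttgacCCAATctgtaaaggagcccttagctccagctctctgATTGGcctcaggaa
Mvd, chr8:122443423-122443672, minus strand: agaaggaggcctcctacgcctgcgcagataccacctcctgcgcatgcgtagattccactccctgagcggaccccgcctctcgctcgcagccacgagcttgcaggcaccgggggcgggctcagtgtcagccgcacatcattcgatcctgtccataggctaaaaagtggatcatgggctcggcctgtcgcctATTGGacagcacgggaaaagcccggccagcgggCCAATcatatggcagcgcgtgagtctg
Insig1, chr5:28071162-28071362, plus strand: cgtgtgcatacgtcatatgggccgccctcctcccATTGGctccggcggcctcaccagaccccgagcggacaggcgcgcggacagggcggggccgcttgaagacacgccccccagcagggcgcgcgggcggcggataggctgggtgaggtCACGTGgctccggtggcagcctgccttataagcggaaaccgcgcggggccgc

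In the full windows the CCAAT letters were found in 25 of the 33 genes (75.8%), against 41.1% of the 27025 genes with a window. TCACNCCAC was found in 1 gene, Hmgcs1, with its first base at position −137 from the annotated start, against 1.44% of all genes. The shorter CACNCCAC, which lies inside it, was found in 3 (Acat2, Hmgcs1 and Insig1), or 9.09% against 7.12%, and the palindrome CACGTG in 6, or 18.2% against 8.09%. Mvk held 5 matches of CCAAT in its window and Hmgcs1 held 4. A match of letters is not a measured binding site, and a window without one may hold the site in another spelling or farther away.

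The libraries held 15052486 to 17381671 reads on genes. Values are FPKM, reads scaled to the length of the gene and to the depth of the library, so that levels can be set side by side between genes. A gene was tested with limma on log2(FPKM + 0.1) where its mean over the 12 libraries reached 0.5 FPKM, which 39 of the 40 genes and 15016 genes in all did. It was called changed at an adjusted p of at most 0.05, adjusted over all genes tested, and fold changes are on that log2 scale, which slightly understates the change of low genes. The gene left out was Nr1h3, encoding LXRα, at 0.207 to 0.303 FPKM in Control, 0.242 to 0.603 in Trauma and 0.365 to 0.546 with TGF-β1, with only 8 to 27 reads per library. Among the genes tested, reads per library ran from 64 for Fdps to 43252 for Scd2.

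After injury the pathway was lower along most of its steps. Of the 39 genes tested, 27 fell and 0 rose in Trauma against Control, while 2.7% of all genes tested fell and 3.3% rose. Their median log2 fold change was −0.42, against −0.01 over all genes tested. In 28 genes all 4 Trauma libraries lay below all 4 Control libraries, as they did in 6.69% of all genes. With TGF-β1 most of these genes remained below Control: 3 of the 39 rose and 2 fell against Trauma (4.4% and 7.71% of all genes), with a median of 0.07, and 27 fell and 2 rose against Control (10.4% and 6.14% of all genes), with a median of −0.39. In 6 genes every TGF-β1 library was above every Trauma library, as in 10.2% of all genes, and in 24 genes every TGF-β1 library was below every Control library, as in 10.6% of all genes. Each group enters 2 of the 3 comparisons, which are therefore not independent. In bulk RNA, fewer cells of a type and less RNA per cell cannot be told apart.

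**Figure D1:**
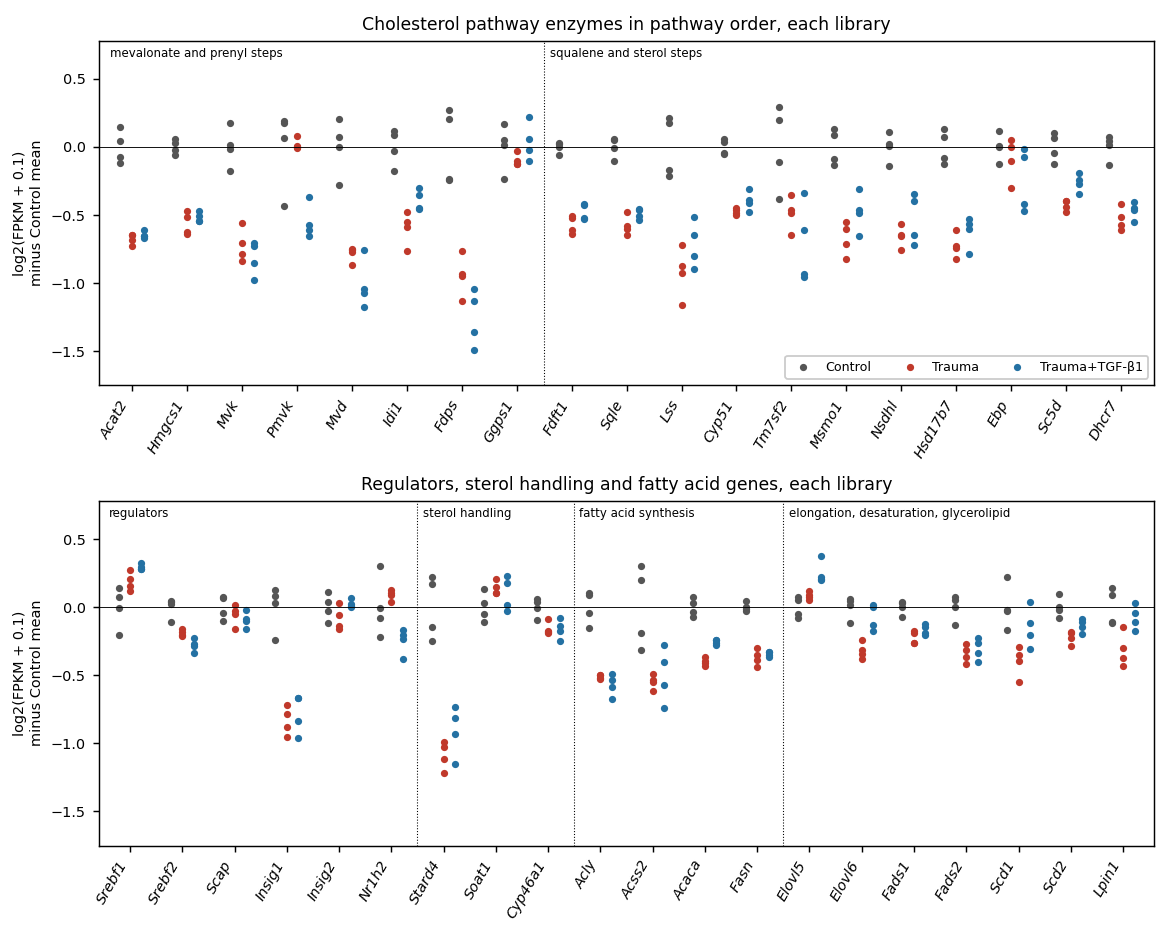
Each point is 1 library's log2(FPKM + 0.1) minus the Control mean of that gene, on the vertical axis, for the 39 genes tested, in pathway order within each role. Trauma (red) and Trauma+TGF-β1 (blue) lie below Control (grey) along most of the cholesterol pathway, with Pmvk, Ggps1 and Ebp near the Control points in Trauma.

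The levels of the 19 cholesterol enzymes summed to 852 ± 45.2 FPKM (SD, n = 4) in Control, 573 ± 18.5 in Trauma and 583 ± 18.7 with TGF-β1. The lowest Control library, at 801 FPKM, lay well above the highest injured library of either kind, at 599. The 11 fatty acid and glycerolipid enzymes summed to 1040 ± 50.5 FPKM in Control, 849 ± 16.1 in Trauma and 893 ± 12.7 with TGF-β1. Here too no injured library reached the lowest Control library, at 982 FPKM, and the highest Trauma library (867) lay below the lowest with TGF-β1 (881). Scd2 made up the largest part of this sum, at means of 473, 406 and 431 FPKM in the 3 groups. Its Trauma and TGF-β1 libraries overlapped, and their difference was not called (limma adjusted p = 0.204).

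Of the 8 enzymes that carry acetyl-CoA to the prenyl diphosphates, 6 fell in Trauma. Acat2, the cytosolic thiolase that starts the route by joining acetyl-CoA units, stood at 73.5, 75.9, 88.1 and 82.0 FPKM in the 4 Control libraries, at 51.0, 51.0, 48.2 and 49.6 in Trauma, and at 50.6, 52.1, 50.2 and 50.5 with TGF-β1. The 8 injured libraries sat within 4 FPKM of each other, all below Control. Its log2 fold change was −0.67 ± 0.05 (SE) in Trauma against Control (limma adjusted p = 2.46e-05) and −0.65 ± 0.05 in Trauma+TGF-β1 against Control (limma adjusted p = 1.48e-05).

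Hmgcs1, which makes HMG-CoA and has the sterol element letters shown above, was the most abundant enzyme of the cholesterol route. It was at 240.0, 246, 255 and 260.0 FPKM in Control, 181, 161, 175 and 162 in Trauma, and 172, 176, 172 and 181 with TGF-β1. All injured libraries lay below all Control libraries, and the Trauma and TGF-β1 libraries overlapped. The fall in Trauma was 1.48-fold (log2 fold change −0.56 ± 0.04, limma adjusted p = 3.06e-05), and the difference with TGF-β1 against Trauma was 0.05 on the log2 scale, with a 95% interval from −0.04 to 0.14.

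Mevalonate is then phosphorylated by the kinases Mvk and Pmvk, at neighbouring steps. Mvk was at 32.9, 36.9, 42.1 and 37.6 FPKM in Control, 25.3, 21.6, 22.8 and 20.8 in Trauma, and 18.9, 20.6, 22.5 and 22.8 with TGF-β1, so both injured groups lay below Control (log2 fold change in Trauma −0.72 ± 0.08, limma adjusted p = 4.68e-04). Pmvk was at 19.4, 29.9, 29.6 and 27.4 FPKM in Control, 26.3, 27.7, 26.0 and 26.2 in Trauma, and 17.6, 17.1, 20.3 and 16.6 with TGF-β1. In Trauma it lay among the Control libraries, and with TGF-β1 all 4 libraries were lower than any in Trauma.

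Pmvk differed by 0.02 ± 0.12 on the log2 scale in Trauma against Control (limma adjusted p = 0.953) and fell 1.48-fold in Trauma+TGF-β1 against Trauma (log2 fold change −0.57 ± 0.12, limma adjusted p = 0.0138). It was also lower than in Control (−0.55, limma adjusted p = 0.00911). Of the 40 genes it had the largest change between the injured groups, and it was called there under each of the 27 alternative settings. Control replicate 1, at 19.4 FPKM, overlapped the TGF-β1 libraries, while the other 3 Control libraries were at or above 27.4.

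Mvd, the decarboxylase that makes isopentenyl diphosphate, was at 59.0, 71.6, 82.8 and 75.5 FPKM in Control, 42.7, 41.9, 42.5 and 39.3 in Trauma, and 34.8, 31.7, 42.4 and 34.1 with TGF-β1. It fell 1.72-fold in Trauma (log2 fold change −0.78 ± 0.10, limma adjusted p = 8.23e-04) and was 2.01-fold below Control with TGF-β1 (limma adjusted p = 1.06e-04). With TGF-β1 3 libraries were lower than any Trauma library and 1 lay among them, and that difference did not pass the threshold (log2 fold change −0.23, limma adjusted p = 0.161).

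Idi1, the isomerase of isopentenyl diphosphate, was at 18.1 to 22.2 FPKM in Control, 12.0 to 14.7 in Trauma and 14.9 to 16.6 with TGF-β1. It fell in Trauma by 0.60 on the log2 scale (limma adjusted p = 7.36e-04). All 4 TGF-β1 libraries lay above all 4 Trauma libraries and below all Control libraries, but the difference from Trauma missed the threshold (log2 fold change 0.21, limma adjusted p = 0.0876).

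Fdps, farnesyl diphosphate synthase, had a low level in this table, at 2.45 to 3.55 FPKM in Control, 1.28 to 1.68 in Trauma and 0.975 to 1.37 with TGF-β1. Its log2 fold change was −0.95 ± 0.15 in Trauma (limma adjusted p = 0.00367) and −1.25 ± 0.15 in Trauma+TGF-β1 against Control (limma adjusted p = 3.68e-04). It shares 26.7% of its exon bases with the gene model Gm43738 on the same strand, and reads there could have been given to either gene or to neither, so its level is uncertain. Ggps1, which makes geranylgeranyl diphosphate for protein prenylation and so leaves the sterol route, was at 10.5 to 13.9 FPKM in Control, 11.3 to 12.1 in Trauma and 11.5 to 14.4 with TGF-β1, with overlapping groups and no call in any of the 3 comparisons.

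From squalene onward, 9 of 11 enzymes fell in Trauma, and 10 were lower than Control with TGF-β1. Fdft1, squalene synthase, the first enzyme committed to sterols, was at 75 to 80 FPKM in Control, 50.3 to 55.0 in Trauma and 54.1 to 58.4 with TGF-β1. It had the smallest p of the 40 genes in Trauma against Control (log2 fold change −0.57 ± 0.04, limma adjusted p = 2.11e-05). Its exons overlap by 18.3% with Ctsb, a highly expressed gene of the opposite strand at a mean of 77.2 FPKM, and the sources used here do not give the strand setting of the counting.

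Sqle, squalene epoxidase, an oxygen-dependent control point of the pathway, was at 64.5, 68.7, 71.7 and 71.8 FPKM in Control, 49.7, 46.3, 45.4 and 44.2 in Trauma, and 48.7, 47.6, 50.4 and 50.1 with TGF-β1. Every injured library lay at least 14 FPKM below every Control library. The fall was 1.49-fold in Trauma and 1.4-fold in Trauma+TGF-β1 against Control (limma adjusted p = 3.06e-05 and 5.84e-05).

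Lss, which folds squalene epoxide into lanosterol, was at 13.5, 13.1, 17.2 and 17.6 FPKM in Control, 7.98, 6.75, 9.18 and 8.24 in Trauma, and 8.14, 8.67, 10.6 and 9.69 with TGF-β1. Its fall of 1.89-fold in Trauma (log2 fold change −0.92 ± 0.12, limma adjusted p = 9.67e-04) was the largest among the squalene and sterol enzymes. The TGF-β1 libraries overlapped those of Trauma at a somewhat higher mean (9.28 against 8.04 FPKM), and that difference was not called (95% interval −0.06 to 0.47 on the log2 scale).

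The enzymes that strip methyl groups from lanosterol and reduce the intermediates followed. Cyp51, the lanosterol demethylase, fell from 53.2 to 57.6 FPKM in Control to 38.9 to 40.4 in Trauma (log2 fold change −0.48, limma adjusted p = 6.15e-05). Msmo1, Nsdhl and Hsd17b7, which together remove the C4 methyl groups, fell by 0.67, 0.66 and 0.73 on the log2 scale (limma adjusted p = 7.52e-04, 8.20e-04 and 1.64e-04). In each of these genes all 8 injured libraries lay below all 4 Control libraries.

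The last steps were lower as well. Sc5d, the sterol desaturase, was at 23.0 to 27.0 FPKM in Control, 18.0 to 19.1 in Trauma and 19.8 to 22.0 with TGF-β1, so that the 3 groups did not overlap. Its log2 fold change was −0.42 in Trauma against Control (limma adjusted p = 6.87e-04), while the difference between the injured groups, 0.16, missed the threshold (limma adjusted p = 0.0634). Dhcr7, which reduces 7-dehydrocholesterol to cholesterol, fell by 0.53 in Trauma (limma adjusted p = 2.02e-04). It was at 17.3 to 19.1 FPKM with TGF-β1 against 16.6 to 18.9 in Trauma.

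The 2 enzymes of this stretch that were not called in Trauma were Tm7sf2 and Ebp. Tm7sf2, a sterol reductase, was at 6.67 to 10.7 FPKM in Control, 5.52 to 6.79 in Trauma and 4.44 to 6.88 with TGF-β1. It was called lower with TGF-β1 against Control (log2 fold change −0.71, limma adjusted p = 0.0116) but not in Trauma (−0.49, limma adjusted p = 0.106), and 12.1% of its exon bases are shared with Vps51 on the same strand. Ebp, the sterol isomerase, was at 3.85 to 4.57 FPKM in Control, 3.39 to 4.37 in Trauma and 3.01 to 4.16 with TGF-β1, and was called in none of the comparisons.

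**Figure D2:**
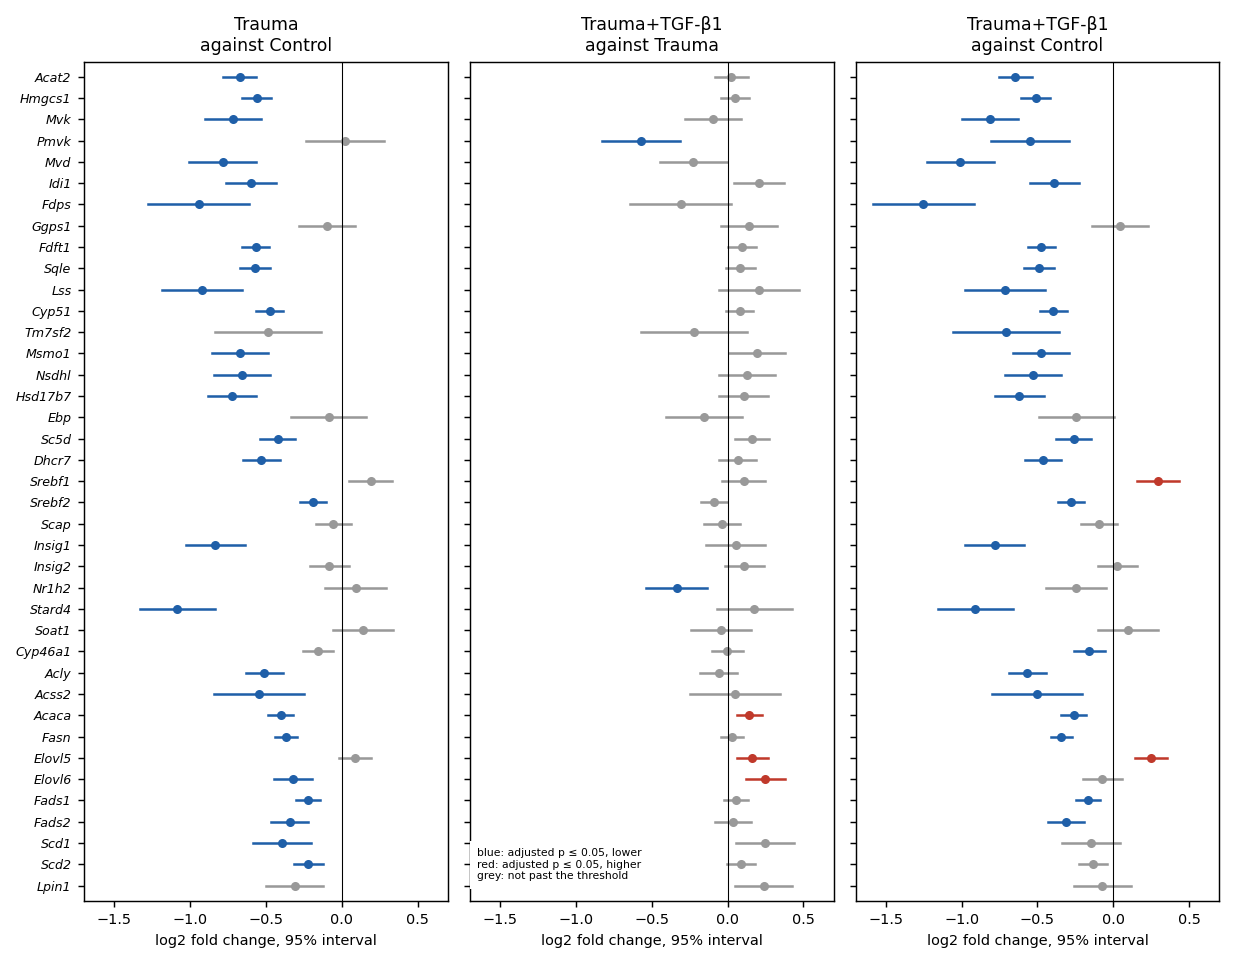
Log2 fold changes of the 39 genes tested with their 95% intervals from limma, for the 3 comparisons, in pathway order from top to bottom. Blue and red mark genes past an adjusted p of 0.05, lower and higher: 27 blue and 0 red in Trauma against Control, 2 blue and 3 red in Trauma+TGF-β1 against Trauma, and 27 blue and 2 red in Trauma+TGF-β1 against Control.

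Among the 6 regulators tested, 2 fell in Trauma, and Insig1 had the largest fold change. Insig1, the SREBP inhibitor that is itself an SREBP target, was at 42.6, 51.4, 53.3 and 55.1 FPKM in Control, 27.3, 25.9, 30.5 and 29.2 in Trauma, and 25.8, 28.2, 31.7 and 31.7 with TGF-β1. It fell 1.79-fold in Trauma and was 1.72-fold below Control with TGF-β1 (limma adjusted p = 2.28e-04 and 2.53e-04), with no overlap of either group with Control. Insig2, its relative that is not an SREBP target, was at 6.59 to 7.73 FPKM in Control, 6.39 to 7.33 in Trauma and 7.19 to 7.52 with TGF-β1, and was not called.

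Srebf2, which encodes SREBP-2, was at 57.5, 64.0, 63.8 and 62.9 FPKM in Control, 55.6, 54.6, 53.6 and 53.7 in Trauma, and 51.3, 49.2, 53.0 and 50.8 with TGF-β1. The 3 groups did not overlap. Its fall was called in Trauma (log2 fold change −0.19 ± 0.04, limma adjusted p = 0.0149) and with TGF-β1 against Control (−0.28 ± 0.04, limma adjusted p = 9.03e-04), but the first call was lost, at an adjusted p of 0.0507, when libraries were scaled by total reads in limma.

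Srebf1, which encodes SREBP-1, was higher with TGF-β1 than in Control. It was at 15.4, 18.7, 19.6 and 17.7 FPKM in Control, 19.3, 20.5, 21.5 and 19.8 in Trauma, and 22.3, 21.8, 21.6 and 21.6 with TGF-β1. Every TGF-β1 library lay above every other library, though the lowest was at 21.6 FPKM and the highest Trauma library at 21.5. The rise against Control was called (log2 fold change 0.29 ± 0.06, limma adjusted p = 0.00963), while the difference in Trauma was not (0.19 ± 0.06, limma adjusted p = 0.113). The difference of Trauma+TGF-β1 from Trauma was not called either (0.11 ± 0.06, limma adjusted p = 0.306). FPKM per gene does not separate the SREBP-1a and SREBP-1c transcripts.

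Scap, the escort of SREBP, was at 13.9 to 15.7 FPKM in Control, 13.3 to 15.1 in Trauma and 13.3 to 14.7 with TGF-β1, and was not called in any comparison. Nr1h2, encoding LXRβ, was at 8.89, 10.3, 12.8 and 9.77 FPKM in Control, 10.6, 11.1, 11 and 11.3 in Trauma, and 9.20, 7.91, 8.79 and 8.98 with TGF-β1. With TGF-β1 all 4 libraries were lower than any in Trauma, a fall of 0.34 on the log2 scale (limma adjusted p = 0.0344). That call did not pass when expression was corrected for GC content together with the replicate block (limma adjusted p = 0.263), and Nr1h2 has the highest GC content of the 39 genes, 60.6%. It was made under 14 of the 27 alternatives and lost without any 1 of the 4 Trauma libraries or without replicate 2, 3 or 4 of Trauma+TGF-β1.

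**Figure D3:**
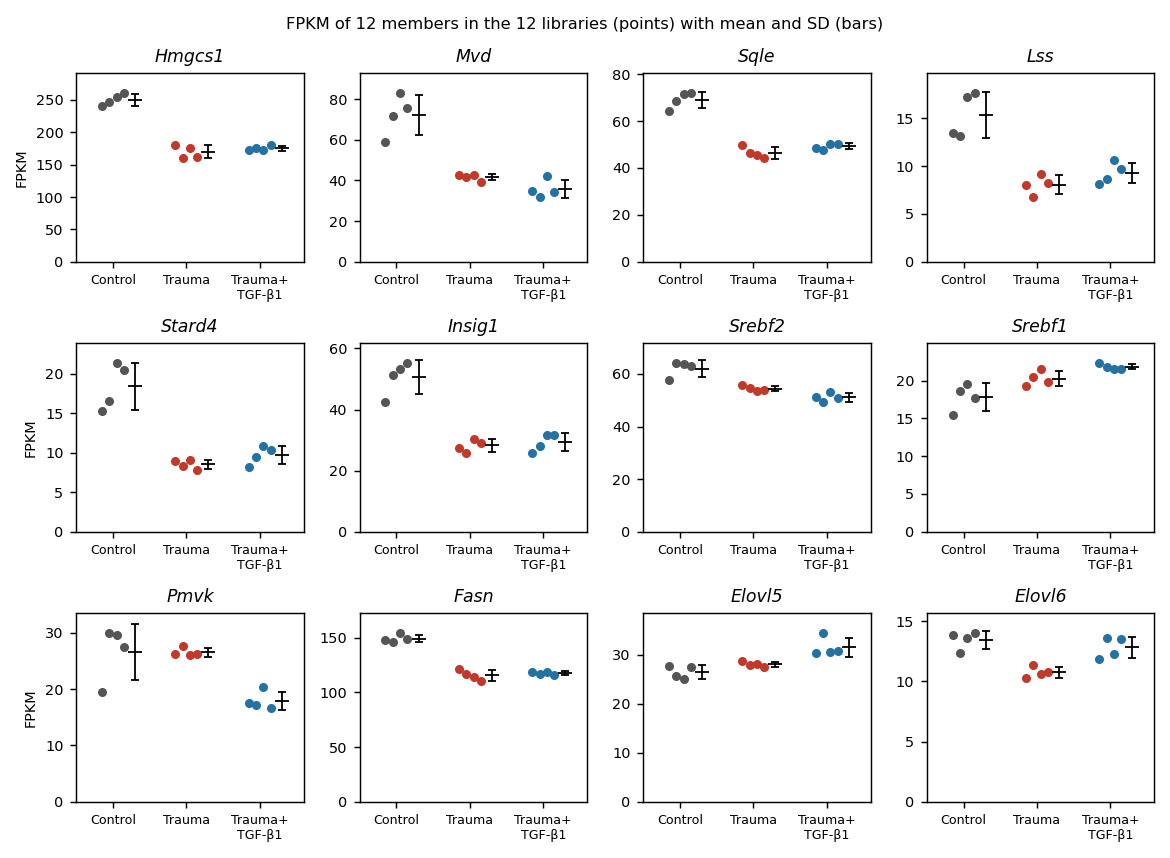
FPKM (vertical axes, from 0) of 12 of the genes in each of the 4 libraries of Control, Trauma and Trauma+TGF-β1, with the mean and SD of each group beside the points. Hmgcs1, Mvd, Sqle, Lss, Stard4 and Insig1 sit lower in both injured groups, Pmvk sits at the Control level in Trauma and lower with TGF-β1, and Srebf1 is highest with TGF-β1.

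The transport protein Stard4, which carries cholesterol between membranes and is an SREBP-2 target, had the largest fall of the 40 genes in Trauma. It was at 15.3, 16.5, 21.3 and 20.5 FPKM in Control, 8.89, 8.35, 9.13 and 7.79 in Trauma, and 8.13, 9.51, 10.9 and 10.3 with TGF-β1. No injured library came near the lowest Control library. The fall was 2.12-fold in Trauma (log2 fold change −1.09 ± 0.11, limma adjusted p = 2.05e-04) and 1.88-fold in Trauma+TGF-β1 against Control (limma adjusted p = 4.77e-04).

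The genes of storage and removal of cholesterol were not called in Trauma. Soat1, which esterifies cholesterol for storage, was at 1.66 to 1.98 FPKM in Control, 1.94 to 2.09 in Trauma and 1.76 to 2.12 with TGF-β1, without a call. Cyp46a1, the neuronal hydroxylase whose product leaves the brain, was at 27.2, 30.2, 29.8 and 28.9 FPKM in Control, 25.7, 25.5, 27.3 and 25.4 in Trauma, and 24.4, 25.7, 27.5 and 26.3 with TGF-β1. It was called lower with TGF-β1 against Control (log2 fold change −0.16, limma adjusted p = 0.0362), with overlapping libraries, and not in Trauma (−0.16, limma adjusted p = 0.0696). The first of these was called under 14 of the 27 alternatives. With the GC correction and the replicate block it was −0.03 (limma adjusted p = 0.688), and it was lost without Control replicate 2, 3 or 4 or Trauma+TGF-β1 replicate 1, 2 or 4.

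The 4 enzymes on the route from citrate and acetate to palmitate all fell in Trauma. Acly, which splits citrate into cytosolic acetyl-CoA for both sterols and fatty acids, was at 96.0, 104, 114 and 115 FPKM in Control, 75.8, 74.4, 75.6 and 74.1 in Trauma, and 71.4, 66.9, 76.1 and 73.9 with TGF-β1 (log2 fold change in Trauma −0.51 ± 0.06, limma adjusted p = 2.91e-04). Acss2, which makes acetyl-CoA from acetate, was at 3.89 to 6.01 FPKM in Control, 3.13 to 3.42 in Trauma and 2.86 to 3.98 with TGF-β1. Its calls were near the threshold (limma adjusted p = 0.0354 in Trauma and 0.027 with TGF-β1 against Control), and that in Trauma was lost without Control replicate 3 or 4 or without any 1 of the 4 Trauma libraries. The call with TGF-β1 was lost without Control replicate 3 or 4 or Trauma+TGF-β1 replicate 1 or 2.

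Acaca, acetyl-CoA carboxylase, was at 16.7, 15.6, 16.0 and 17.2 FPKM in Control, 12.7, 12.3, 12.4 and 12.1 in Trauma, and 13.8, 13.6, 13.8 and 13.5 with TGF-β1. The 3 groups were fully separate, with TGF-β1 between the others. It fell in Trauma by 0.40 on the log2 scale (limma adjusted p = 1.02e-04) and rose with TGF-β1 against Trauma (0.14 ± 0.04, limma adjusted p = 0.0324), while below Control (−0.26, limma adjusted p = 0.00116). The rise was called under 12 of the 27 alternatives, and under none of those that left out a library of either injured group.

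Fasn, fatty acid synthase, was at 148, 146, 154 and 149 FPKM in Control, 121, 117, 114 and 110.0 in Trauma, and 119, 117, 119 and 116 with TGF-β1. Both injured groups lay below Control, by 0.37 and 0.34 on the log2 scale in size (limma adjusted p = 7.11e-05 and 7.89e-05). Trauma and TGF-β1 libraries overlapped, with a difference of 0.03 (95% interval −0.04 to 0.10).

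Of the 7 genes of elongation, desaturation and glycerolipid synthesis, 5 fell in Trauma and 2 were lower than Control with TGF-β1. Elovl6, the elongase that takes palmitate to stearate, was at 13.9, 12.4, 13.6 and 14.0 FPKM in Control, 10.3, 11.4, 10.6 and 10.8 in Trauma, and 11.9, 13.6, 12.3 and 13.5 with TGF-β1. All 4 TGF-β1 libraries lay above those of Trauma, and 2 of them lay below every Control library. It fell in Trauma by 0.32 (limma adjusted p = 0.00742) and rose with TGF-β1 against Trauma by 0.25 ± 0.06 on the log2 scale (limma adjusted p = 0.0205), and the difference from Control was −0.07 (95% interval −0.20 to 0.05). The rise was called under 21 of the 27 alternatives and lost without Trauma replicate 1 or Trauma+TGF-β1 replicate 2 or 4. It was also lost with the GC correction and the replicate block (limma adjusted p = 0.101).

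Elovl5, the elongase of polyunsaturated fatty acids, was at 27.8, 25.6, 25 and 27.5 FPKM in Control, 28.7, 27.9, 28.2 and 27.5 in Trauma, and 30.4, 34.4, 30.5 and 30.8 with TGF-β1. Every TGF-β1 library lay above all others. It rose against Trauma (0.16 ± 0.05, limma adjusted p = 0.0448) and against Control (0.25 ± 0.05, limma adjusted p = 0.00538). The first of these calls was made under 11 of the 27 alternatives and under none that left out a library of either injured group, and also not without Control replicate 2 or 4, while the call against Control was made under all 27. With the GC correction and the replicate block the rise against Trauma was not called (limma adjusted p = 0.238).

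Scd1 and Scd2, the desaturases that make oleate and palmitoleate, differed by about an order of magnitude in level. Scd2, the main form in brain and the most abundant of the 40 genes, was at 448, 465, 473 and 506 FPKM in Control, 404, 417, 414 and 388 in Trauma, and 439, 445, 427 and 413 with TGF-β1. Scd1 was at 46.0, 50.7, 51.0 and 60.2 FPKM in Control, 35.4, 39.4, 42.3 and 40.5 in Trauma, and 41.8, 53.0, 45.0 and 47.6 with TGF-β1. Both fell in Trauma (log2 fold changes −0.22 and −0.40, limma adjusted p = 0.0115 and 0.0225), and neither was called against Control with TGF-β1 (limma adjusted p = 0.0551 and 0.285) or against Trauma. The call of Scd1 in Trauma was lost without Control replicate 4 or Trauma replicate 1, 2 or 4.

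Fads1 and Fads2, the desaturases of polyunsaturated fatty acids, fell in Trauma by 0.22 and 0.35 on the log2 scale (limma adjusted p = 0.00420 and 0.00344) and were at 48.0 to 50.7 and 104 to 118 FPKM with TGF-β1, overlapping their Trauma ranges of 46.0 to 49.0 and 103 to 114. Both were called lower with TGF-β1 against Control, and the call of Fads1 was lost with quantile normalization (−0.04, limma adjusted p = 0.52) and with scaling by total reads. Lpin1, a phosphatidate phosphatase of triglyceride synthesis, was at 3.40 to 4.09 FPKM in Control, 2.72 to 3.34 in Trauma and 3.27 to 3.78 with TGF-β1. All its Trauma libraries lay below those of Control, without a call (log2 fold change −0.31, limma adjusted p = 0.0552).

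Set out by role, the Trauma libraries had median log2 differences from Control of −0.73 to −0.52 for the mevalonate and prenyl enzymes and of −0.61 to −0.51 for the squalene and sterol enzymes. With TGF-β1 these ranges were −0.66 to −0.60 and −0.53 to −0.41. For elongation, desaturation and glycerolipid synthesis the 4 Trauma libraries lay between −0.37 and −0.24. Those with TGF-β1 lay between −0.18 and −0.09, without overlap. All 7 of those genes had a positive fold change with TGF-β1 against Trauma, as had 7586 of the 15016 genes tested. Of the 7, 2 were called higher, Elovl5 and Elovl6, against 4.4% of all genes. Both calls were lost with the GC correction and the replicate block. For the 6 regulators the Trauma libraries lay between −0.0925 and −0.0470. Those with TGF-β1 lay just lower, between −0.2160 and −0.0955.

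**Figure D4:**
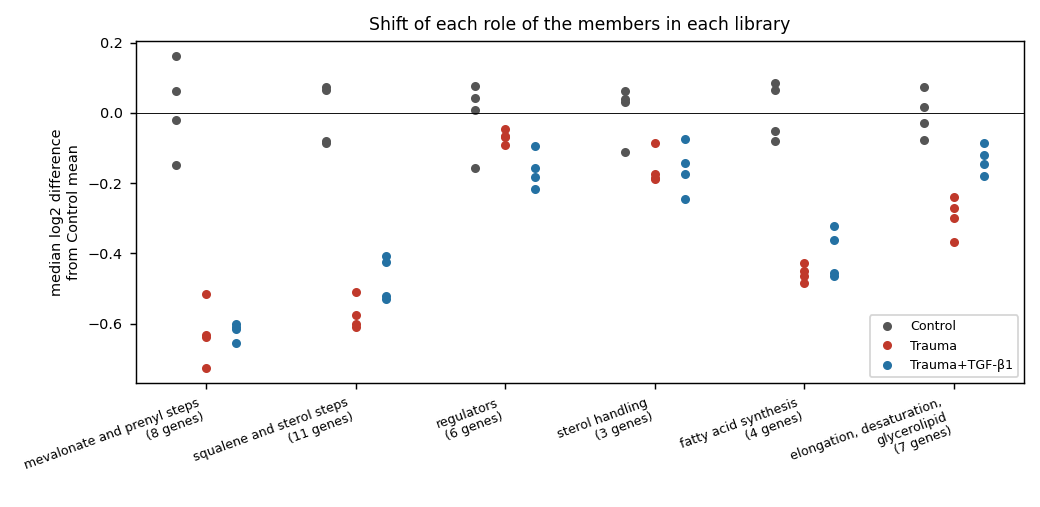
Each point is the median, over the genes of a role, of 1 library's log2 difference from the Control mean (vertical axis), for Control (grey), Trauma (red) and Trauma+TGF-β1 (blue). The Trauma and TGF-β1 points overlap for both stretches of the cholesterol pathway. They are apart, with TGF-β1 higher, for elongation, desaturation and glycerolipid synthesis, and narrowly apart, with TGF-β1 lower, for the regulators.

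Around the pathway, 4 further lists of genes were read in the same fit, against the shares of all genes tested that rose and fell, 3.3% and 2.7% in Trauma against Control and 4.4% and 7.71% with TGF-β1 against Trauma. Of 23 tested genes of SREBP processing, sterol uptake, export and LXR partners, 1 rose and 2 fell in Trauma. Abca1, the cholesterol exporter induced by LXR, rose from 9.80 ± 0.56 FPKM in Control to 13.2 ± 0.98 in Trauma (log2 fold change 0.43, limma adjusted p = 0.00240) and again to 15.4 ± 1.00 with TGF-β1 (0.22 against Trauma, limma adjusted p = 0.0414). Tmem97, a sterol-regulated protein of the endoplasmic reticulum, fell from 19.0 ± 0.79 to 13.4 ± 0.82 FPKM in Trauma (limma adjusted p = 0.00352), and Abca2, a lipid transporter, fell by 0.17 on the log2 scale (limma adjusted p = 0.0279). With TGF-β1 against Trauma 2 rose, Abca1 and the lipoprotein receptor Vldlr (0.19, limma adjusted p = 0.0232), and 1 fell, the lysosomal sterol carrier Npc2 (−0.28, limma adjusted p = 0.0196).

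Of 18 genes of side branches of sterols and isoprenoids, such as prenyl transfer to proteins and ubiquinone synthesis, 0 rose and 1 fell in Trauma, Icmt, the methyltransferase of prenylated proteins (−0.19, limma adjusted p = 0.0416). With TGF-β1 against Trauma 2 rose: Zmpste24, a protease of prenylated proteins, and Pdss1, a subunit of the synthase of the ubiquinone side chain (0.32 and 0.38, limma adjusted p = 0.0279 and 0.0380). The median of this list was 0.02 in Trauma against Control, on the other side of 0 from the −0.58 of the 19 cholesterol enzymes.

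Of 25 tested genes of fatty acid synthesis, activation and elongation outside the 40, 3 rose and 5 fell in Trauma. The 3 with the smallest p were lower: Acsl3 and Acsl4, which activate fatty acids with coenzyme A, and Tecr, the last reductase of elongation, by 0.41, 0.35 and 0.40 in size on the log2 scale (limma adjusted p = 7.11e-05, 7.36e-04 and 3.25e-04). With TGF-β1 against Trauma 3 rose and 4 fell. Acsl4 rose (0.21, limma adjusted p = 0.0144), as did Hacd2, a dehydratase of elongation (0.30, limma adjusted p = 0.0180), and Acsbg1, another enzyme that activates fatty acids, fell (−0.20, limma adjusted p = 0.0173).

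Genes of fatty acid oxidation were more often higher than lower in Trauma. Of 22 tested genes 4 rose and 0 fell, and 21 had positive fold changes, with a median of 0.20, while 6994 of all 15016 genes tested had positive fold changes, with a median of −0.01, and 3.3% rose and 2.7% fell. Cpt1a, which brings long-chain fatty acids into mitochondria, rose from 3.5 ± 0.16 to 4.60 ± 0.44 FPKM (limma adjusted p = 0.0103), Hadh by 0.43 and Etfa by 0.33 on the log2 scale (limma adjusted p = 0.01 and 0.0127), enzymes of β-oxidation and of its electron transfer. With TGF-β1 against Trauma 0 rose and 4 fell, among them Acaa2, Ech1 and Slc25a20 (−0.29, −0.26 and −0.27, limma adjusted p = 0.0244, 0.0275 and 0.0344).

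Markers of other cells moved with injury. The summed level of 10 neuron markers was 1650 to 1710 FPKM in Control, 1450 to 1550 in Trauma and 1420 to 1450 with TGF-β1, and 3 of the 10 fell and 1 rose in Trauma, while 4 fell and 4 rose with TGF-β1 against Control. Tubb3, a neuronal tubulin, made up most of that sum, at 960.0 ± 31.4 FPKM in Control, 842 ± 28.4 in Trauma and 739 ± 24.6 with TGF-β1, and is named here because the sum turns on it. The 10 astrocyte markers summed to 218 to 247, 278 to 340 and 292 to 313 FPKM, with 8 of 10 called higher in Trauma. With TGF-β1 4 were called higher against Control, while 1 rose and 3 fell against Trauma. The largest parts of that sum were Gfap and Aldoc, named for that reason after their values were seen. Gfap was at 47.7 ± 4.1 FPKM in Control, 87.3 ± 13.2 in Trauma and 97.1 ± 3.63 with TGF-β1. Aldoc was at 86.4 ± 8.87, 98.3 ± 8.54 and 76.3 ± 2.62. Sums of 10 microglial markers were 23.3 to 27.1, 34.5 to 44.1 and 27.4 to 32.5, of 10 oligodendrocyte lineage markers 54.0 to 60.3, 69.7 to 77.2 and 66.4 to 73.3, and of 8 vascular and fibroblast markers 2.6 to 3.23, 3.08 to 4.58 and 3.72 to 4.48 FPKM. No marker was at 0 in a whole group. Their part in the fall of the sterol genes was not tested.

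Control replicate 1 stood apart from the other Control libraries on the first 2 principal components of all genes. Without it 30 of the 39 genes fell in Trauma against Control and 29 fell with TGF-β1 against Control, and the 5 genes called between the injured groups were called again. Shares of all genes were not set beside these counts. In that fit the median log2 fold changes against Control were −0.45 in Trauma and −0.36 with TGF-β1. Those of all genes tested were −0.02 and −0.01. The log2 fold changes of all genes with TGF-β1 against Trauma also followed GC content (Spearman rho −0.465 across 14699 genes, which are not independent replicates), as did those with TGF-β1 against Control (−0.36), while rho was 0.0877 in Trauma against Control. Those with TGF-β1 against Trauma followed gene length less closely (Spearman rho 0.217 across 15016 genes). The median GC content of the 39 genes, 49.5%, was close to the 49.6% of all genes tested. The 5 genes called between the injured groups lay on both sides of it. Pmvk (57.0%) and Nr1h2 (60.6%) fell, and Acaca (49.1%), Elovl5 (44.8%) and Elovl6 (44.0%) rose. With the GC correction 1 of these 5 was called again, and 3 other genes were newly called.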

How the data were processed

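The deposited table held FPKM for 12 libraries (4 each of Control, Trauma and Trauma+TGF-β1), a number larger than the study's text gives. The authors purified poly(A) RNA, sequenced read pairs, aligned them with HISAT2 2.0.5 to mm10 (per the labels), counted reads per gene with featureCounts and computed these FPKM values, and they also deposited gene lengths (other) and coordinates, which were those of GENCODE M21 (GRCm38) for 39 of the 40 genes. FPKM times length came out as whole reads, within 0.05 reads, for 100% of values, and the median-of-ratios factors of the deposited values were all 1, so the table was already scaled in that way. The strand setting of the counting is not given in the sources used here.

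The 40 genes and the further lists were chosen with earlier results of these data known. Every one of the 40 could be named, and of each further list up to 3 called genes per comparison with the smallest p. Comparisons used limma 3.58.1 (R 4.3.3) on log2(FPKM + 0.1) with all 12 libraries fitted together and no block, for 15016 genes with a mean of at least 0.5 FPKM, with Benjamini-Hochberg adjustment within each of 3 comparisons. The procedure was tested on simulated data. Motifs were searched in RefSeq promoters (GRCm38.p6). Libraries with the same number deviated together little (correlations −0.00877 to 0.0762 over 12 pairs). Those with different numbers had correlations of −0.0911 to 0.0733 over 36 pairs. Such small values cannot exclude a shared preparation, so whether the numbers pair the libraries is not known. Alternatives were other pseudocounts, filters, scalings and fits, GC and length corrections, voom on the recovered reads, and leaving out each library. Scaling by total reads was added after the data were seen. Python 3.11.15 with numpy 2.4.6, pandas 2.3.3 and matplotlib 3.10.9 was used for tables and plots.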

Additional observations from a re-analysis of the deposited data

Results flagged for a closer look

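Dixon's test at its 95% critical value was applied to 117 groups of 4 libraries (the 39 genes tested in the 3 groups), and 2 had a library standing apart, fewer than the 1 in 20 that chance gives. Cyp46a1 was at 27.3 FPKM in Trauma replicate 3, with the other Trauma libraries at 25.4 to 25.7. Elovl5 was at 34.4 FPKM in Trauma+TGF-β1 replicate 2, with the other 3 libraries of its group at 30.4 to 30.8, all above every Trauma library.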

How the results depend on the processing

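Under each of 27 alternatives, 23 of the 27 calls in Trauma against Control were made again (the others were Srebf2, Acss2, Scd1 and Scd2), as were 26 of 29 in Trauma+TGF-β1 against Control (the others were Cyp46a1, Acss2 and Fads1) and 1 of 5, Pmvk, in Trauma+TGF-β1 against Trauma. Requiring a log2 fold change of 0.5 or more in size as well left 17 lower in Trauma against Control, 14 lower and 0 higher in Trauma+TGF-β1 against Control, and 1 lower and 0 higher in Trauma+TGF-β1 against Trauma. The shares of all genes given above are those of the reported fit and were not set beside the counts under other settings. The comparison of Trauma+TGF-β1 against Trauma had 2 lower and 3 higher in the reported fit. It had 1 lower and 1 higher without a trend in eBayes and without a filter on low values, 1 lower under the GC and the length corrections, each with and without the replicate block, 0 higher under the length correction with the block, 9 higher with quantile normalization, and 6 higher with voom. Over the fits that left out 1 library each, it had 1 to 2 lower and 0 to 3 higher; it had 1 lower without any one of the Trauma libraries or of Trauma+TGF-β1 replicates 2, 3 and 4, and 0 higher without Trauma replicate 1 or Trauma+TGF-β1 replicate 2 or 4. With the replicate block alone there were 29 lower in Trauma against Control, 2 higher and 2 lower in Trauma+TGF-β1 against Trauma, and 27 lower and 2 higher in Trauma+TGF-β1 against Control. The GC correction turned Cyp46a1 in Trauma+TGF-β1 against Trauma from −0.0006 to 0.16 on the log2 scale, which then passed the threshold. The cause of these changes was not tested.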
